A study of Mus musculus with 4 samples.

Results

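Knockdown of AKAP95 was compared with scramble shRNA in undifferentiated mouse E14 cells, an embryonic stem (ES) cell line. The 2 arrays carried AKAP95 shRNA cells, labelled as AKAP95 knockdown, and scramble shRNA cells, labelled as control, both stably infected with a virus expressing the shRNA and both grown on 0.1% gelatin in the presence of LIF, a cytokine under which ES cells stay undifferentiated. A second pair carried the same 2 shRNAs after LIF had been withheld for 4 days and all-trans retinoic acid (RA, 1 µM) then given for 4 days, again AKAP95 shRNA against scramble shRNA. It shares no array with the undifferentiated pair and is used here as another measurement of the shRNA contrast under a different culture condition. The sequences of the shRNAs, their number, whether clones or pools of infected cells were used, and whether both arrays of 1 shRNA came from the same infected culture are not given in the sources used here.

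The Illumina bead arrays held 25697 probes, and 11765 of them were detected (detection p under 0.01) on at least 1 of the 2 undifferentiated arrays, which is the rule by which they were kept. The detected probes numbered 11344 (44.1%) on the knockdown array and 11348 (44.2%) on the scramble array, and the median signals of all probes were 75.1 and 75.5. The kept probes stood for 8741 of the 17876 genes on the array. Each gene was read from 1 chosen probe, and the 8734 genes whose chosen probe was kept were compared. Of these, 8186 were detected on both arrays, 278 on the knockdown array alone and 270 on the scramble array alone. The 584 probes whose lower detection p lay between 0.005 and 0.01, just inside the rule, had median signals of 87.1 in knockdown and 84.3 in scramble cells. The 566 probes between 0.01 and 0.02, just outside it, had 80.7 and 82.1. With 1 array a side there is no spread between replicates, so every difference below is a size with no test, and the number of arrays limits its precision.

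AKAP95 is the protein of the gene Akap8. It is a zinc finger protein of the nucleus and one of the A-kinase anchoring proteins, which hold protein kinase A, the kinase switched on by cyclic AMP, at set places in the cell through its regulatory subunits. AKAP95 also binds DPY30, a shared subunit of the MLL and SET1 complexes that methylate histone H3 at lysine 4, and it has been found with condensin, the MCM helicase subunit MCM2, the deacetylase HDAC3 and the RNA helicase p68. The study asks how MLL complexes and AKAP95 bear on transcription before and after differentiation.

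Akap8, on chromosome 17, had a signal of 139 in knockdown cells, against 272 in scramble cells. After normalization this was a log2 difference of -1.18, or 2.27-fold lower with AKAP95 shRNA, and it was read from the only probe for the gene. In RA-treated cells the signals were 199.7 with AKAP95 shRNA and 297 with scramble shRNA (log2 difference -0.77). Akap8 was thus lower with AKAP95 shRNA on both pairs of arrays. Its paralog Akap8l had 391 in knockdown and 397 in scramble cells (0.03). Akap8 was at -0.93 without background correction, at -0.99 with an offset of 50 and at -0.96 from the deposited median-normalized values, all just short of 2-fold.

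Few genes differed by 2-fold. Past 2-fold, a log2 difference of 1, knockdown cells had 6 of 8734 genes (0.0687%) above scramble cells and 11 (0.126%) below. A gene kept through 1 array alone could not be lower on that array. Among the 8186 genes detected on both arrays, 6 were above and 7 below. Past 1.5-fold the numbers were 104 (1.19%) above and 147 (1.68%) below. With median scaling in place of quantile normalization these were 79 higher and 176 lower, and from the deposited median-normalized values 24 and 62. The standard deviation (SD) of the difference was 0.236 over the 8186 genes detected on both arrays, while different probes of 1 gene had an SD of 0.161 around their mean difference (2041 genes, 4774 probes). The spread narrowed with signal. With genes split into 4 equal parts by signal, the SD from the dimmest to the brightest was 0.299, 0.248, 0.215 and 0.160, and the numbers past 2-fold among genes detected on both arrays were 4, 4, 5 and 0. In RA-treated cells the same contrast had an SD of 0.527 over 8527 genes. There 856 (9.11%) of 9397 genes were higher with AKAP95 shRNA by 1.5-fold and 840 (8.94%) were lower, while 298 (3.17%) were higher by 2-fold and 305 (3.25%) were lower. The medians of 20 chromosomes ran from -0.01 to 0.04 in undifferentiated cells. In RA-treated cells they ran from -0.07 to 0.15, with chromosome 11 the highest and chromosome 6 next at 0.04. What sets chromosome 11 apart there was not tested.

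**Figure D1:**
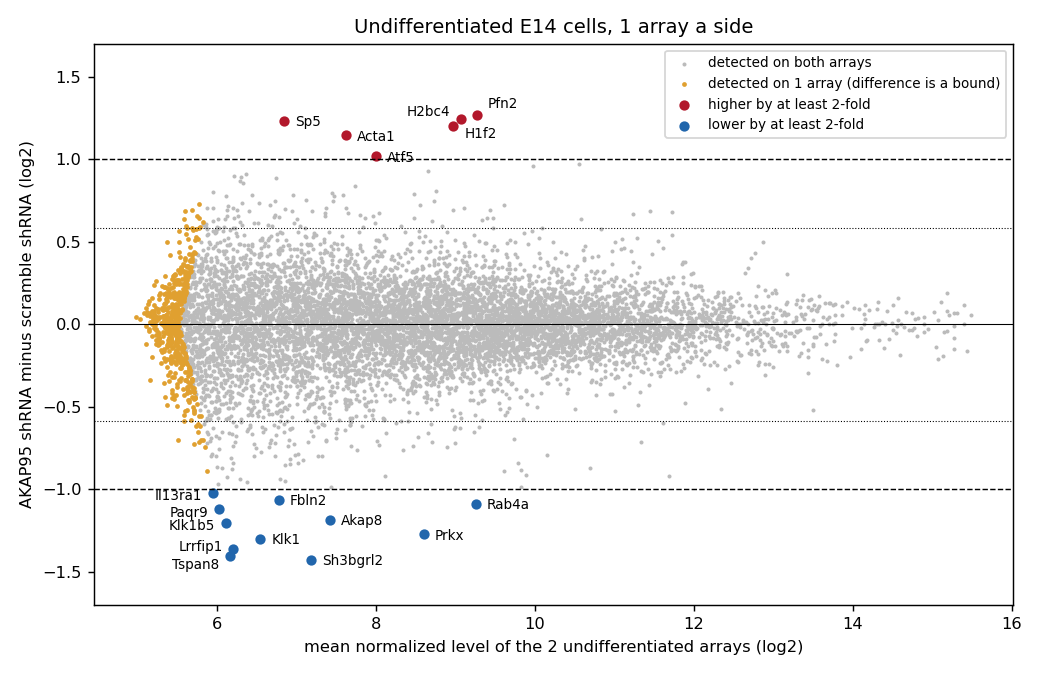
Log2 difference between AKAP95 shRNA and scramble shRNA cells (y axis) against the mean normalized log2 level of the 2 undifferentiated arrays (x axis), 1 point a gene, with dashed lines at 2-fold and dotted lines at 1.5-fold. The 6 genes above the upper dashed line and the 11 below the lower one spare the bright end of the range, and orange points are genes detected on 1 array only, whose difference is a bound.

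Among the 6 higher genes was Pfn2, which encodes profilin 2, a binder of actin monomers. Its signal was 898 in knockdown cells, against 407 in scramble cells (log2 difference 1.27). Another of its probes gave 590 in knockdown and 306 in scramble cells (1.07), so both detected probes stood higher. In RA-treated cells the Pfn2 signals were 2992 with AKAP95 shRNA and 3017 with scramble shRNA (0.02). Acta1, the skeletal muscle actin gene on chromosome 8, had 294 in knockdown and 160.0 in scramble cells (1.15). It was higher with AKAP95 shRNA in the RA-treated pair too, at 458 against 181 (1.62).

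H1f2 and H2bc4 code for a linker histone and a core histone H2B, proteins that package DNA. The H1f2 signal was 716 in knockdown cells, against 344 in scramble cells (1.21), and 731 against 325 after RA (1.34). H2bc4 had 777 in knockdown and 360.0 in scramble cells (1.24), and 436 and 283 after RA (0.72). These 2 genes stood higher with AKAP95 shRNA on both pairs of arrays. They lie close together in the histone cluster of chromosome 13, with H1f6, H4c3 (-0.27) and Hfe (0.35) between them in gene order.

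Sp5, a transcription factor gene that Wnt signalling turns on, had 192 in knockdown and 110 in scramble cells (1.23). After RA it went the other way, with 147 in AKAP95 shRNA cells and 375 in scramble shRNA cells (-1.76). Atf5, a bZIP transcription factor gene of the amino acid and stress response, had 362 in knockdown and 201 in scramble cells (1.02), and 242 and 226 after RA (0.07). Just under 2-fold came Spink1, a trypsin inhibitor gene, with 2077 in knockdown and 1056 in scramble cells (0.97), and H19, an imprinted non-coding RNA gene, with 1342 and 710 (0.96).

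The promoters of Acta1, H1f2 and Sp5 are shown because each gene was past 2-fold and carries a motif known for its family. The sequences are RefSeq's (GRCm38.p6), 250 bases before to 50 after the annotated start, written 5′ to 3′ on the gene's strand. Acta1 is chr8:123894726-123895025 on the minus strand, H1f2 is chr13:23738557-23738856 on the plus strand and Sp5 is chr2:70474673-70474972 on the plus strand. Each promoter was searched for its own motifs only, and capitals mark the matches of those on either strand.
Acta1: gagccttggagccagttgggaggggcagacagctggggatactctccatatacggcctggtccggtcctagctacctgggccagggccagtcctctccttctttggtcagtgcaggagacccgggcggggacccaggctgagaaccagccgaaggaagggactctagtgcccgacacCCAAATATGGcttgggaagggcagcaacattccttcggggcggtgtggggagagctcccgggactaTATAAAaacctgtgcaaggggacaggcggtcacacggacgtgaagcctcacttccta
H1f2: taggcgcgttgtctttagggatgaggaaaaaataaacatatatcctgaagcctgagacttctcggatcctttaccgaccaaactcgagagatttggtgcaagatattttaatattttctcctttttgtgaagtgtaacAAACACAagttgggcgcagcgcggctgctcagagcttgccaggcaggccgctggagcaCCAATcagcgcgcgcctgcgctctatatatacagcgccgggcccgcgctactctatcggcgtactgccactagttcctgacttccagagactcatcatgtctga
Sp5: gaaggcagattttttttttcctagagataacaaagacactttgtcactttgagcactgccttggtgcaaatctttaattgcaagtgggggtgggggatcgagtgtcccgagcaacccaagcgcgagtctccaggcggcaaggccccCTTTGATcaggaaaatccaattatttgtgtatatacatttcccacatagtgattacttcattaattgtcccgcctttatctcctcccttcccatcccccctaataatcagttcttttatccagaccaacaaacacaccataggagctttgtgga
The capitals in Acta1 are a CArG box, the site known to bind serum response factor, starting 73 bases before the start, and TATAAA, starting 7 bases before it. Of 32851 promoters of the same length, 1.63% held a CArG box and 13.6% TATAAA. In H1f2 they are CCAAT at 54 bases and AAACACA, a motif known from linker histone promoters, at 112 bases before the start, found in 37.4% and 7.18% of promoters. In Sp5 they are CTTTGAT at 104 bases before the start, a form of the site bound by Tcf and Lef factors, found in 3.73% of promoters. CTTTGAA, another form of it, is in 5.14% of promoters, and its letters are not in the Sp5 window. The matches in 1 promoter do not overlap each other. TATAAA was also searched in H1f2, where its letters are not found, and CCAAT and AAACACA, not searched in Sp5, occur there in lower case.

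The largest decrease was in Sh3bgrl2, which had 119 in knockdown and 255 in scramble cells (-1.43), and 183 and 202 after RA (-0.24). Prkx, which encodes an X-linked catalytic subunit related to that of protein kinase A, had 256 in knockdown cells, against 602 in scramble cells (-1.27). Its other detected probe gave 214 and 536 (-1.42). After RA, Prkx had 355 with AKAP95 shRNA and 504 with scramble shRNA (-0.63), so that it was lower in knockdown cells on both pairs. Rab4a, a small GTPase gene of endosome recycling, had 409 in knockdown and 869 in scramble cells (-1.09), and 404 and 574 after RA (-0.62). These 3 genes, with Pfn2, H2bc4 and H1f2, stayed past 2-fold under each of the 9 alternative settings tried, while the remaining 11 of the 17 genes went below 2-fold under at least 1 of them.

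Other decreases were in dim genes. Lrrfip1, which encodes a nucleic acid binding protein, had 85.0 in knockdown and 147 in scramble cells (-1.36), and 148 and 249.7 after RA (-1.05). A further Lrrfip1 probe did not show this. It had 79.9 in knockdown and 81.3 in scramble cells, detected on neither array. After RA it was detected on both arrays, with 97.6 in AKAP95 shRNA and 96.6 in scramble shRNA cells (0.005). Fbln2, a gene of the matrix protein fibulin 2, had 108.5 in knockdown and 182 in scramble cells (-1.06), and 286 and 781 after RA (-1.71). Another Fbln2 probe, detected on the knockdown array alone, ran the other way at 86.2 in knockdown and 67.6 in scramble cells (0.86), and with the mean of all detected probes the gene was at -0.50. Of the 17 genes past 2-fold, 10 had a single probe and 4 had another probe detected in undifferentiated cells. It took the same direction in Pfn2, Prkx and Paqr9 and the opposite direction in Fbln2.

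Tspan8, Paqr9 and Il13ra1 were not detected in knockdown cells, so their differences are bounds. They were kept through the scramble array alone, which fixed their direction. The tetraspanin gene Tspan8 had 82.2 in knockdown and 149.6 in scramble cells, at least 2.65-fold lower in knockdown cells. Paqr9, of a family of membrane receptors, had 82.3 and 131, at least 2.18-fold lower, but another of its probes had 83.7 and 87.9 (-0.12). The interleukin receptor subunit gene Il13ra1 had 80.9 and 125, at least 2.03-fold lower, whereas after RA it had 179 with AKAP95 shRNA and 133 with scramble shRNA (0.55). A bound is one under the background correction used, and with the deposited median-normalized values these genes were at -0.81, -0.04 and -0.55.

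**Figure D2:**
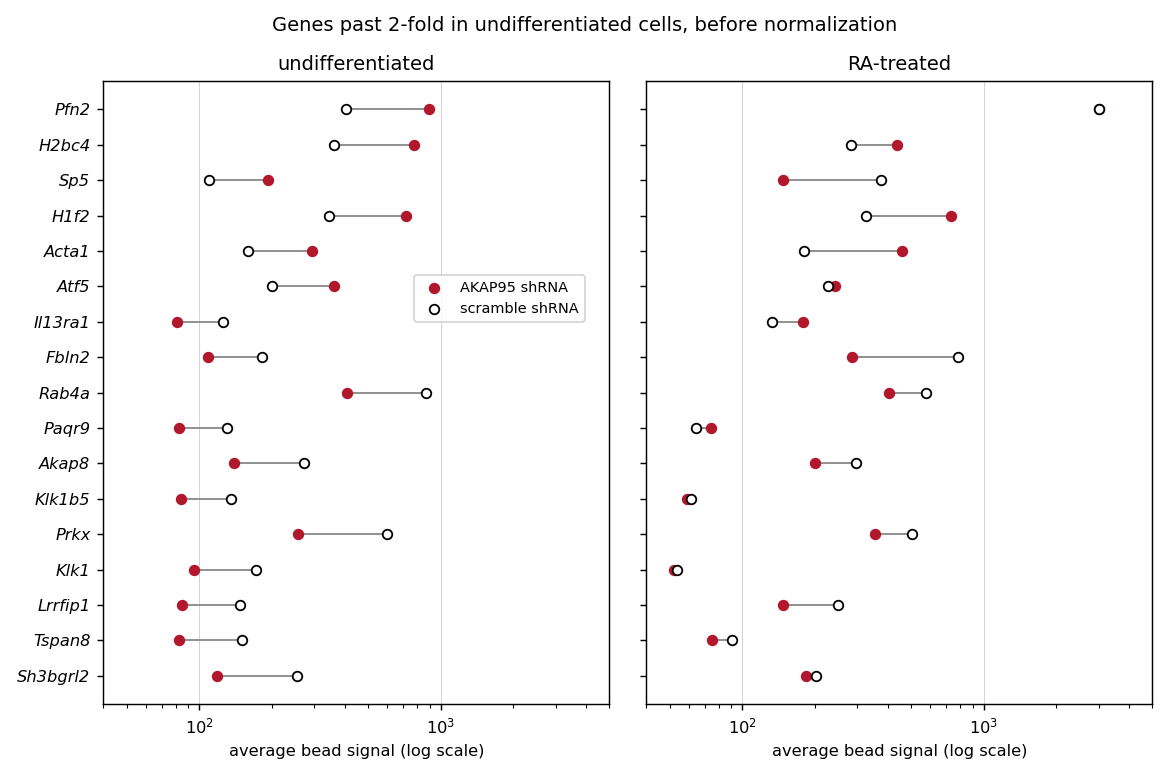
Average bead signal before normalization (x axis, log scale) of the 17 genes past 2-fold in undifferentiated cells, with undifferentiated cells on the left and RA-treated cells on the right, filled points for AKAP95 shRNA and open points for scramble shRNA. H1f2, H2bc4, Acta1 and Atf5 have the filled point to the right in both panels. Prkx, Rab4a, Akap8, Lrrfip1, Fbln2, Sh3bgrl2, Tspan8, Klk1 and Klk1b5 have it to the left in both. Sp5, Il13ra1, Paqr9 and Pfn2 change sides, and the RA-treated points of Pfn2 nearly coincide (2992 and 3017). Tspan8, Klk1, Klk1b5 and Paqr9 were detected on neither RA-treated array.

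The kallikreins are secreted serine proteases whose genes form a cluster on chromosome 7. Of 23 on the array, 6 were compared, and their median was -0.57 against 0.01 over all genes compared. Lower by at least 1.5-fold were 3 of the 6, against 147 (1.68%) of all 8734 genes. The list, like the others, was chosen with earlier results of these data known. Klk1b5 and Klk1b27 were kept through the scramble array alone, where they are high, so their direction was fixed by that. The 4 detected on both arrays were below 0, as were 4233 of all 8734 genes compared. The median of the list ran from -0.60 to -0.38 under the alternative settings. Klk1, the tissue kallikrein gene, had 95.2 in knockdown and 172 in scramble cells (-1.30). Klk1b5, which the deposited table lists under an older symbol and which was matched by accession, had 84.4 and 136 and was at least 2.31-fold lower in knockdown cells. Klk1b4 had 90.6 and 118 (-0.65). These 3 are consecutive genes at 1 end of the cluster. Another probe of Klk1b5 had 62.1 in knockdown and 59.2 in scramble cells, and another of Klk1b4 had 62.5 and 56.1. Neither of these probes showed a decrease, and both were detected on neither array. Klk10 had 92.6 and 113 (-0.48), and Klk1b27 had 80.9 and 97.3, not detected in knockdown cells (-0.38, a bound). Klk8 had 589 in knockdown and 794 in scramble cells (-0.40). After RA it was higher with AKAP95 shRNA, at 650.2 against 352 (1.00), while the other 5 were detected on neither RA-treated array.

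The promoters of the 3 neighbouring kallikrein genes are shown because these neighbours of 1 family were each past 1.5-fold. They are RefSeq's (GRCm38.p6), in the same window, all on the plus strand: Klk1 is chr7:44225110-44225409, Klk1b5 is chr7:44216224-44216523 and Klk1b4 is chr7:44207183-44207482. Capitals mark the first of the longest runs shared by all 3, of 12 bases. Other shared runs of the same length, agcaggtgcaac and gagaatgagggt, are left in lower case.
Klk1: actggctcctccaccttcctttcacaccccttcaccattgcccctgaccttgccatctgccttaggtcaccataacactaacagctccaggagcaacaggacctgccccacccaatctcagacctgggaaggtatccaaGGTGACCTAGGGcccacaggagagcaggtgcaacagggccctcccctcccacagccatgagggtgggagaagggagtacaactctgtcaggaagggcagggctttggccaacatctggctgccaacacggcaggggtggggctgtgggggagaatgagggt
Klk1b5: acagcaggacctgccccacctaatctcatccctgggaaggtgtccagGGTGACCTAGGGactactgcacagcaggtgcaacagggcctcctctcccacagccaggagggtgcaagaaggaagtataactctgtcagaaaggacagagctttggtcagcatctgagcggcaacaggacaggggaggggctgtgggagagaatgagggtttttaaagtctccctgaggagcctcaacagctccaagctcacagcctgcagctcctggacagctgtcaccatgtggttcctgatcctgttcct
Klk1b4: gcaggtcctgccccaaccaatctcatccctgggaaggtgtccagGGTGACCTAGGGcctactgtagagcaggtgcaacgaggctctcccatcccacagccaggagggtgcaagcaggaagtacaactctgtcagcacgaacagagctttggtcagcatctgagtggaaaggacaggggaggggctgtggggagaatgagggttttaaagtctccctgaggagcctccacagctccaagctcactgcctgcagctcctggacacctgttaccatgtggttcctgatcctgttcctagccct
The promoters of Klk1b5 and Klk1b4 matched in 273 of 298 aligned bases (91.6%). Those of Klk1 and Klk1b5 matched in 178 of 209 (85.2%), and those of Klk1 and Klk1b4 in 170 of 205 (82.9%). No probe or transcript sequences were compared, so whether 1 probe reads RNA of more than 1 kallikrein gene was not tested.

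Among core and linker histone genes, 44 of 53 on the array were compared. Their median was -0.01, with 3 higher and 2 lower by at least 1.5-fold, against 1.19% and 1.68% of all genes compared. Beside H1f2 and H2bc4, H1f0, the replacement linker histone gene, was higher in knockdown cells (123 against 95.9, 0.70), and after RA it was lower (161 against 238, -0.80). H3c10 (-0.70) and H1f1 (-0.70, a bound) were lower, each with a signal under 180 on both arrays. On the H1f2 side of the pair the next genes were H3c3 (-0.24), H2bc3 (-0.14, a bound, as it was not detected in knockdown cells) and H2ac4 (-0.41). On the H2bc4 side H2ac6, H1f4 and H2bc6 were detected on neither array, so no direction is known there. Many histone genes are close copies of each other, and whether their probes share RNA was not tested.

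**Figure D3:**
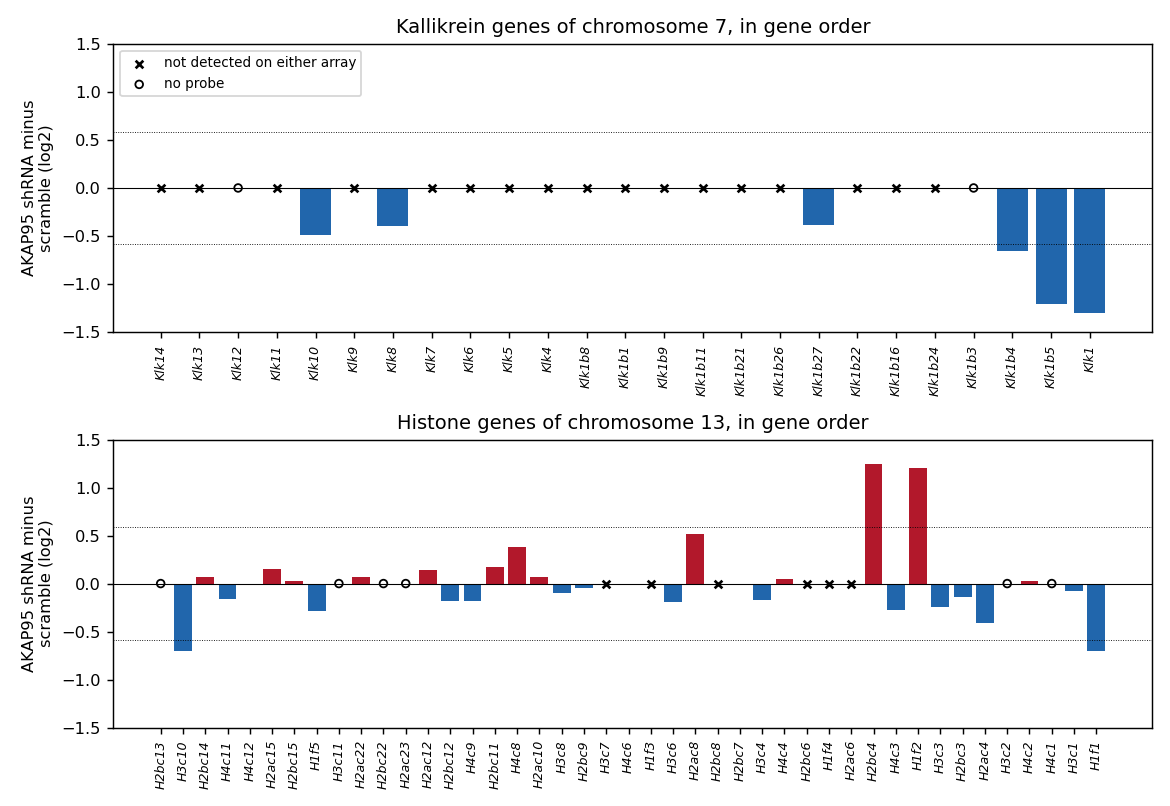
Log2 difference between AKAP95 shRNA and scramble shRNA in undifferentiated cells (y axis) for the kallikrein genes of chromosome 7 (top) and the histone genes of chromosome 13 (bottom) in gene order (x axis), with dotted lines at 1.5-fold, crosses for genes not detected and circles for genes without a probe. Klk1b4, Klk1b5 and Klk1 stand together at the right end at -0.65, -1.20 and -1.30, and H2bc4 and H1f2 stand out among histone genes at 1.24 and 1.21.

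Genes of the A-kinase anchoring system other than Akap8 and Prkx lay between -0.14 and 0.28. Of 15 compared, Akap8 and Prkx were the 2 past 1.5-fold, both lower, and the median was 0.00. Over all genes compared, 1.68% were lower by 1.5-fold. Prkaca, the main catalytic subunit gene, had 1144 in knockdown and 1199 in scramble cells (0.00). Prkar1a, a regulatory subunit gene, had 1298 and 1131 (0.25), and Akap7, another anchor gene, had 1354 and 1165 (0.28). Prkar2a and Prkar2b, regulatory subunit genes that A-kinase anchors bind, were detected on neither array.

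Genes of proteins found with AKAP95 gave no member past 1.5-fold. Among 15 such partners the median was 0.02 and the range ran from Mcm5, a helicase subunit gene (7209 in knockdown and 9080 in scramble cells, -0.31), to Gja1, the gap junction gene of connexin 43 (4406 and 3729, 0.30). Mcm2 was at -0.05, Hdac3 at -0.10 and Ddx5, which encodes p68, at -0.01. Of 14 MLL and SET1 complex genes, 0 were past 1.5-fold, with a median of -0.02. Dpy30 had 6625 in knockdown and 6126 in scramble cells (0.16), Wdr5 was at 0.21, Ash2l at -0.03, Rbbp5 at -0.04 and Kmt2b, a methyltransferase gene, at -0.06. The ends of this range were Setd1b, a SET1 methyltransferase gene (-0.25), and Ncoa6, a coactivator gene (0.22).

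The identity of the cells was checked with marker genes. Of 25 pluripotency genes on the array, 23 were detected on each undifferentiated array. The summed signal of all 25 was 131186 in knockdown and 133849 in scramble cells. Pou5f1, which encodes Oct4, had 7263 in knockdown and 7323 in scramble cells (0.02), Nanog had 10841 and 11239 (0.05), and Sox2 had 624 and 655 (0.00). Zfp42, Klf4 and Esrrb, genes of the naive state, were at -0.23, -0.16 and 0.03. Gbx2, a homeobox gene that favours self-renewal under LIF, was the 1 member of 23 past 1.5-fold, with 3523 in knockdown and 2260 in scramble cells (0.69). After RA it was at 345 with AKAP95 shRNA and 607 with scramble shRNA (-0.98). Such levels come from whole cultures, in which fewer cells of a kind and less RNA per cell cannot be told apart.

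Markers of other cells were detected in part on both arrays. Each sum below is over all markers of a list on the array, detected or not, before background correction. Background is therefore part of each sum. Endoderm markers were detected for 8 genes in knockdown and 9 in scramble cells, of 17 on the array, with summed signals of 4879 and 5065, and Gata4, Foxa2, Afp and Ttr were on neither. Bright among them were the matrix genes Sparc, with 1801 in knockdown and 1689 in scramble cells, and Col4a1, with 1182 and 1238. Neural markers were detected for 7 and 6 of 20, with sums of 3916 and 3649, and Sox1, Pax6 and Dcx were on neither, while Stmn2, a microtubule regulator gene, had 2290 and 1917. The sums were 1499.9 and 1423 for mesoderm, endothelium and muscle, 2283 and 2331 for germ line, and 1145 and 1155 for fibroblast markers. Trophectoderm markers had sums of 5069 in knockdown and 4182 in scramble cells, with Cdx2, Elf5, Hand1 and Prl3d1 on neither array and the AP-2 factor gene Tfap2c at 1666 and 1724. Within that list the keratin genes of simple epithelium were higher in knockdown cells. Krt18 had 605 and 402 (0.69), Krt8 had 2205 and 1493 (0.58) and Krt7 had 157 and 125 (0.55). Eomes was at -0.46. The part of these cells in other differences was not tested.

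Genes of the formative state and primitive streak, which ES cells switch on when they leave the naive state, had 14 members on the array, of which 5 were compared. These 5 were detected on both arrays and lay below 0, as did 4233 of all 8734 genes. Lower by at least 1.5-fold were 2 of the 5, against 147 (1.68%) of all genes compared. The median of the 5 was -0.46 (-0.47 to -0.31 under the alternatives). It is the value of Eomes, also a trophectoderm marker (92.5 in knockdown and 112 in scramble cells). Sall2 had 109 in knockdown and 148 in scramble cells (-0.65), and Pou3f1, a POU factor gene, had 125 and 175 (-0.63), the 2 past 1.5-fold. Both fell short of 1.5-fold under some alternatives. Without background correction, with an offset of 50 and from the deposited ratios, Sall2 was at -0.44, -0.48 and -0.44. Pou3f1 was at -0.46, -0.49 and -0.47 there. Otx2, a homeobox gene of the epiblast, had 946 and 1245 (-0.32), and Dnmt3b, a DNA methyltransferase gene, had 3784 and 4945 (-0.31). Fgf5, T and Mixl1 were detected on neither array. With detection p under 0.05 the list had 8 members, of which 6 were below 0 and 1 above.

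Genes of the LIF and Stat3 pathway had a median of 0.21 (0.14 to 0.25) over 10 members, with 0 past 1.5-fold. The 9 detected on both arrays were above 0, as were 4469 of all 8734 genes compared, and Osmr was kept through the knockdown array alone, which fixed its direction. The LIF receptor gene Lifr had 116 in knockdown and 103 in scramble cells (0.36), the kinase gene Jak1 had 112 and 98.3 (0.40), and Socs3, a feedback inhibitor induced by Stat3, had 2058 and 1682 (0.33). In the BMP and Id list 10 of 11 members were above 0 (against 4469 of 8734 genes), with a median of 0.27 (0.18 to 0.32) and 0 past 1.5-fold. It was 9 of the 10 detected on both arrays, since Id4 is a bound kept through the knockdown array alone, and 8 of 11 with the mean of all detected probes. Bmp4, the ligand gene, had 1151 and 802 (0.57), and Id2, an inhibitor of bHLH factors, had 437 and 322 (0.53). The receptor gene Bmpr1a was at 0.12, and Bmp7 was at -0.47. After RA, Bmp4 (-0.76) and Id2 (-0.70) were lower with AKAP95 shRNA.

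Actin genes and targets of serum response factor had a median of 0.19 (0.13 to 0.20) over 19 members. By at least 1.5-fold, 3 were higher and 0 lower, against 1.19% and 1.68% of all genes compared. Higher beside Pfn2 and Acta1 was Ccn2, which encodes a matricellular growth factor. It had 4230 in knockdown and 2786 in scramble cells (0.68), and 2122 and 1117 after RA (1.06). Tpm1, a tropomyosin gene, had 2618 and 1858 (0.52), and Acta2, the smooth muscle actin gene, had 928 and 680.4 (0.51). Srf itself was at 0.04 and Actb, the cytoplasmic actin gene, at -0.02. Pfn1, the paralog of Pfn2, was at -0.13.

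Hypoxia and glycolysis genes had a median of -0.15 (-0.21 to -0.12) and 0 past 1.5-fold, with 19 of 21 below 0 (18 of the 20 detected on both arrays), against 4233 of 8734 genes. Vegfa, which drives vessel growth, had 235 in knockdown and 349 in scramble cells (-0.58), and Aldoa, an aldolase gene, had 4338 and 6687 (-0.52). Matrix genes had a median of 0.01 over 15 members. Lower by at least 1.5-fold were 2 of these, against 1.68% of all genes compared, namely Fbln2 and Mmp2, a gelatinase gene (402 and 629, -0.62). Mmp2 was lower after RA as well, at 1518 with AKAP95 shRNA and 3328 with scramble shRNA (-1.22).

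Signalling and lineage lists gave few members past 1.5-fold. Over all genes compared, 1.19% were higher and 1.68% lower by that much. Lefty1, a secreted inhibitor of Nodal, had 611 in knockdown and 1272 in scramble cells (-0.99), but 480.4 and 140.4 after RA (2.21). Its neighbour in function Lefty2 was at -0.24, Nodal at -0.04 and the Nodal-related ligand gene Gdf3 at 0.46. Of 8 Wnt targets compared, only Sp5 was past 1.5-fold, with Cdx1 at 0.39, Axin2 at 0.29 and Tcf7l1 at -0.24. Among 10 FGF targets, 0 were past 1.5-fold, from Dusp4, a phosphatase gene (-0.47), to Etv5, an ETS factor gene (0.45). Meis1, a Hox cofactor gene, was higher in knockdown cells (257 against 171, 0.79), and Crabp1, which encodes an RA-binding protein, was lower (142 against 206, -0.67), out of 9 RA response genes. Gata2, a blood and endothelial factor gene, was higher (288 against 183, 0.84). Of 27 Hox genes on the array, 2 were detected.

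Among imprinted genes, H19 and its neighbour Igf2, a growth factor gene, were both higher in knockdown cells. Igf2 had 3041 in knockdown and 1946 in scramble cells (0.67), and 29197 and 40010.0 after RA (-0.33). Ndn, the necdin gene, was lower (487 against 761, -0.62), and the median of 15 imprinted genes was 0.07. In the cell cycle list the mitotic kinase gene Aurka was lower, with 1155 in knockdown and 2306 in scramble cells (-0.87), and 946 and 1903 after RA (-1.13). It was the 1 member of 14 past 1.5-fold, while Plk1 (0.15), Ccnb1 (0.00) and Cdk1 (-0.02) lay near 0. The 2-cell-stage list had Usp17la at 0.89 (135 against 96.2), with Zscan4c at 0.03. Interferon response genes (median 0.11), p53 targets (0.04), splicing and hnRNP genes (0.02), immediate early genes (0.02) and germ line genes (0.02) had 0 members past 1.5-fold. In the amino acid and unfolded protein response list Atf5 was the 1 member of 23 past it, while Atf4, which acts in the same response, was at 0.22 and its target Asns at 0.09.

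**Figure D4:**
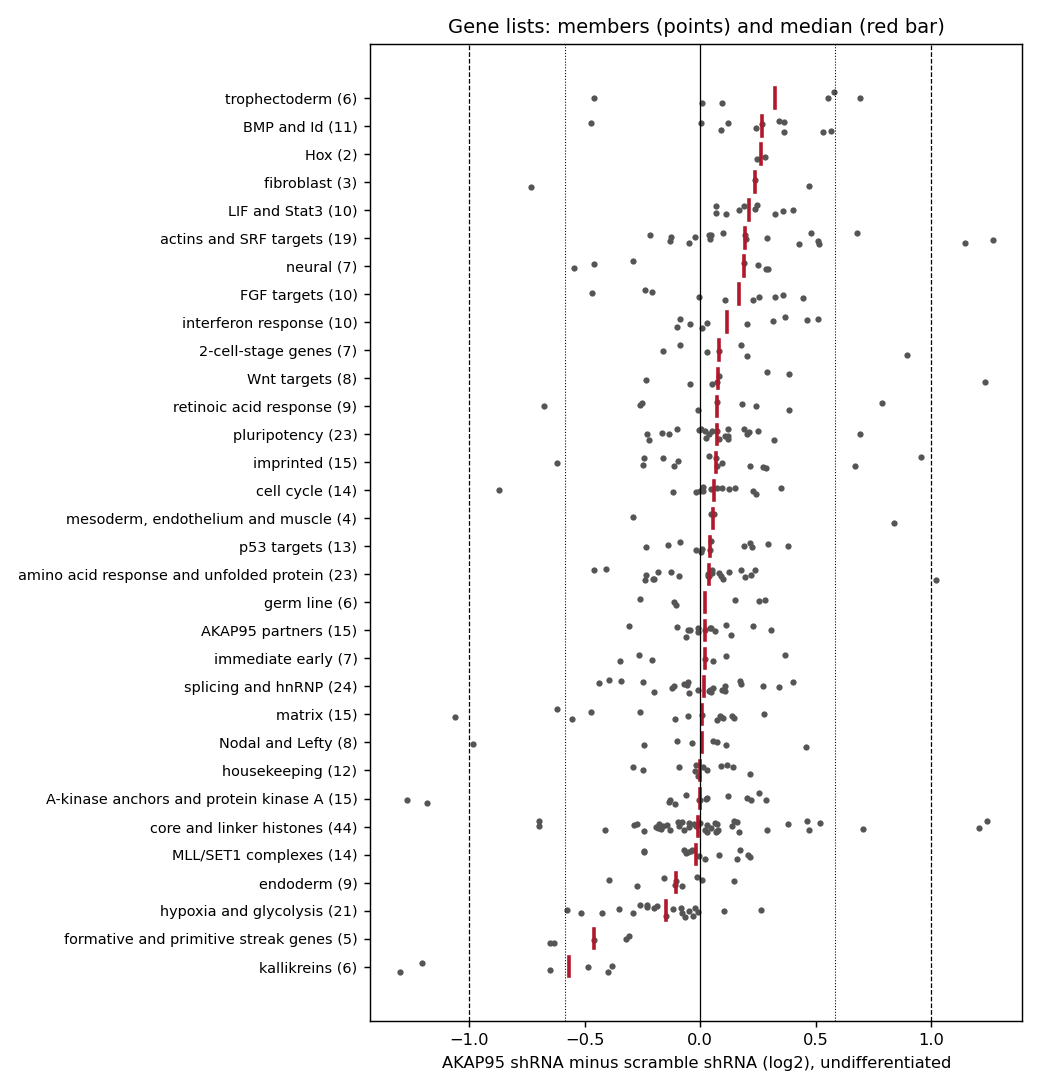
Log2 difference between AKAP95 shRNA and scramble shRNA in undifferentiated cells (x axis) for the members compared in 32 gene lists (points, one row a list, number of members in brackets), with the median as a red bar, dotted lines at 1.5-fold and dashed lines at 2-fold. The kallikrein (-0.57) and formative and streak (-0.46) medians lie farthest below 0 and the trophectoderm median (0.32) farthest above. The lists were chosen with earlier results of these data known, so their ranking is a description only. Among the kallikreins, Klk1b5 and Klk1b27 were kept through the scramble array alone, which fixed their direction. That trophectoderm median ran from 0.18 to 0.55 under the alternative settings. Of its 6 members, 5 were detected on both arrays, 4 of them above 0. The remaining member was kept through the knockdown array alone, which fixed its direction.

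The RA-treated pair gave the same direction for part of the genes. Of the 104 genes higher by at least 1.5-fold in undifferentiated knockdown cells, 94 were also compared after RA, and 25 of these (26.6%) were higher and 11 (11.7%) lower there by 1.5-fold. Of the 147 lower ones, 126 were compared, and 41 (32.5%) were lower and 9 (7.14%) higher. Over all 8256 genes compared in both pairs the shares in the RA-treated pair were 9.31% higher and 7.32% lower. The 25 shared higher genes were 24.0% of those in undifferentiated cells and 2.92% of those in RA-treated cells, and the 41 shared lower genes were 27.9% and 4.88%. Over 7591 genes detected on all 4 arrays, the 2 differences correlated weakly (Pearson's r 0.177, Spearman's rho 0.162), which describes these arrays, since genes of 1 array share its RNA and labelling.

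Some genes of higher signal were among the 41 that were lower in both pairs, named here after their values were seen. Spcs1, a signal peptidase subunit gene, had 2397 in knockdown and 4747 in scramble cells (-0.92), and 3898 and 6952 after RA (-0.80). Its other probe was lower too, at -0.65 and -0.99. Ssr3, which encodes a subunit of the translocon-associated complex, had 1976 and 3459 (-0.71), and 2909 and 5696 after RA (-0.92). Both gene products act where secreted proteins enter the endoplasmic reticulum. Satb1, a chromatin organizer gene, had 551 and 1048 (-0.89), and 1349 and 2740 after RA (-1.13). Msantd4 had 656 and 1300.1 (-0.92), and 846 and 2048 after RA (-1.43). Ifitm2, an interferon-induced membrane protein gene, had 2539.9 and 4011 (-0.60), and 1729 and 3229 after RA (-0.97). Mycl, a Myc family gene also among the 41, was dimmer in undifferentiated cells, with 148 and 259 (-0.98), and had 351 and 1124 after RA (-1.90).

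Among the 25 higher in both pairs, Rhox6, an X-linked reproductive homeobox gene, had 257 in knockdown and 178 in scramble cells (0.71), and 756 and 171 after RA (2.54). Parp14, an ADP-ribosyltransferase gene, had 175 and 129 (0.69), and 297 and 97.8 after RA (2.22). Folr1, a folate receptor gene, had 836 and 563 (0.65), and 237 and 103 after RA (1.66). Sct, the secretin gene, had 948 and 604 (0.73), and 3630 and 1664 after RA (1.25).

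**Figure D5:**
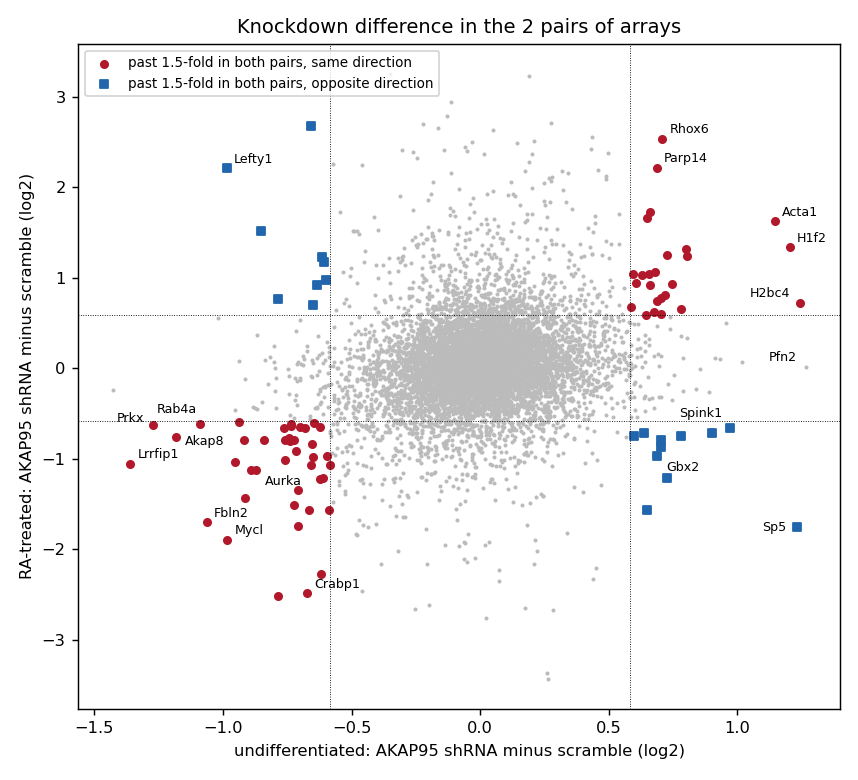
Log2 difference between AKAP95 shRNA and scramble shRNA in undifferentiated cells (x axis) and in RA-treated cells (y axis), 1 point a gene compared in both, with dotted lines at 1.5-fold. Red circles are the 66 genes past 1.5-fold in both pairs in the same direction and blue squares the 20 in opposite directions, such as Sp5 at 1.23 and -1.76 and Lefty1 at -0.99 and 2.21.

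A limma model that adds an RA term and an shRNA term was fitted to 9875 genes over the 4 arrays. Its knockdown term is the mean of both pairs and so is no test of the undifferentiated pair alone, and it rests on 1 residual degree of freedom. For genes picked by size in the undifferentiated pair, that same difference is part of the term. The term is therefore no separate support for those genes. At an adjusted p under 0.05 (limma, Benjamini-Hochberg) it called 0 genes (0%), and the smallest adjusted p was 0.818. At an unadjusted p under 0.05 there were 412 (4.17%), of which 175 were higher and 237 lower with AKAP95 shRNA. For Akap8 the knockdown term was -0.98 with a standard error of 0.19 (limma, unadjusted p = 0.00826, adjusted p = 0.818). Of the genes past 2-fold in undifferentiated cells, H1f2 (1.27, standard error 0.17), Acta1 (1.38, standard error 0.20) and Lrrfip1 (-1.21, standard error 0.18) had the smallest unadjusted limma p, of 0.00184, 0.00281 and 0.00301, with the same adjusted p of 0.818.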

How the data were processed

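Total RNA of 4 cultures was labelled as biotinylated cRNA and hybridised to Illumina bead arrays, 1 array a group, per the labels. For each probe and array the deposited values are an average bead signal, which per the file headers is a linear intensity not yet normalized, beside its detection p-value. A further deposited ratio, the intensity over the median of its own array, is the authors' median normalization, and another is that value over the undifferentiated scramble array. All 25697 probes matched between these tables at a relative tolerance of 1e-05. The scanner software, its version and any background subtraction are not given in the sources used here.

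Starting from the intensities, background was corrected with limma 3.58.1 (R 4.3.3) in the manner of neqc, with control values inferred from the detection p-values and an offset of 16. The 4 arrays were quantile-normalized and taken to log2. Probes were matched to RefSeq names by accession (23876), symbol (728) or synonym (710), and 383 stayed unmatched and kept their file symbol. Each gene was read from 1 probe, the one whose mean over all arrays was highest. Where a gene was detected (p under 0.01) on 1 side only, the other side was set to the lowest log2 level at which a probe was detected on that array, if below it, and the difference is a bound, written "at least" where a fold is given. No genome build is named in the files, so coordinates are given for RefSeq promoters alone. The additive limma fit used values without bounds.

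The pair was compared by size, at 2-fold and 1.5-fold. Signals quoted are before normalization and differences are after it, so the 2 can differ in size, most of all for dim genes. Genes named are those past 2-fold, the 12 largest differences each way, the 2 highest and 2 lowest members of each list, the targeted gene and a few others listed with it (Akap8l, protein kinase A, complex and pluripotency genes). Neighbours in the clusters, the other list members, Mycl and the genes shared with the RA-treated pair were added after their values were seen. The members and the 32 lists were chosen with earlier results of these data known. Alternatives were no background correction, an offset of 50, median scaling, quantile normalization of the 2 undifferentiated arrays, the deposited ratios, 2 other detection rules, the mean of probes and no bounds. Python 3.11.15 with pandas 2.3.3 did the remaining steps.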

Additional observations from a re-analysis of the deposited data

Results flagged for a closer look

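Of the genes named by rule that were past 1.5-fold in undifferentiated cells, 5 moved the opposite way by 1.5-fold in the RA-treated pair, with 1 array a side in each pair, so that the difference between the 2 states was not tested. Sp5 was higher with AKAP95 shRNA in undifferentiated cells (1.23) and lower after RA (-1.76). Gbx2 was at 0.69 and -0.98. Spink1 was at 0.97 and -0.66, where the RA-treated signals, 90.7 with AKAP95 shRNA and 117 with scramble shRNA, were close to the detection limit. Fgf10, a growth factor gene, was at 0.90, from 129 in knockdown and 92.9 in scramble cells, and at -0.72 after RA, a bound. Lefty1 was lower with AKAP95 shRNA in undifferentiated cells (-0.99) and higher after RA (2.21).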

How the results depend on the processing

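The counts depended on how background was handled. Genes higher by at least 2-fold, 6 as reported, were 3 without background correction, 3 with an offset of 50, 3 from the deposited ratios, 11 with detection p under 0.05 and 21 without bounds. Genes lower by at least 2-fold, 11 as reported, were 3, 3 and 4 under the first 3 of these, 7 when detection on both arrays was required and 25 without bounds. At 1.5-fold the 104 higher genes became 31, 40 and 24, then 166 with detection p under 0.05 and 194 without bounds, and the 147 lower genes became 47, 58 and 62, then 223 without bounds. Akap8 stayed lower under all 9 alternatives, but below 2-fold without background correction (-0.93), with an offset of 50 (-0.99) and from the deposited ratios (-0.96). Of the 17 genes past 2-fold, 6 stayed past it under all alternatives that gave a value and 11 did not, and 0 changed direction. Paqr9 was at -0.09 with median scaling, where another probe was chosen, and at -0.04 from the deposited ratios. Of 21 named genes between 1.5-fold and 2-fold, 10 went below 1.5-fold somewhere. The neural median, plotted at 0.19, was -0.02 with detection on both arrays and -0.06 with the mean of probes. Medians of the germ line, Nodal, matrix, AKAP95 partner, immediate early, splicing, housekeeping, p53, amino acid response and mesoderm lists turned sign near 0. limma called 0 genes in all 6 of its settings, with 404 to 815 at an unadjusted p under 0.05. Quantile normalization of 2 arrays was not run for limma, which needs all 4. Signals near background limit the dim genes. No paired analysis was possible because each group has 1 array, other than the additive limma fit, which sets the shRNA contrast side by side in both culture states.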

Other observations

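Further genes with large differences belong to none of the lists. In knockdown cells, higher genes included Slc25a30, a mitochondrial carrier gene, with 139 against 97.7 in scramble cells (0.91), and 9530068E07Rik, with 533 against 302 (0.93). Lower genes, singled out after their values were seen, included Eras, a Ras family gene of ES cells, with 624 in knockdown and 1178 in scramble cells (-0.84), and Auts2, a nuclear developmental gene, with 95.2 and 145 (-0.95). Eras was at 0.10 after RA, with 95.4 in AKAP95 shRNA and 77.7 in scramble shRNA cells. This is a bound, as Eras was not detected in the RA-treated scramble shRNA cells. Thy1, a cell surface gene counted among the fibroblast markers, had 217 in knockdown and 352 in scramble cells (-0.73), while the other markers of that list detected were Twist1 (0.24) and Vim (0.47).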
